A study of Mus musculus with 10 samples.

Results

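Cohesin is the ring-shaped protein complex that holds sister chromatids together, and the genes described here are its subunits in mouse ovary. They were chosen by gene symbol as the rows of the table named Smc1a, Smc1b, Smc3, Rec8, Rad21, Rad21l, Stag1, Stag2 and Stag3, so 9 of the 55487 genes in the table are members. All 9 were found, 4 of them meiotic (Smc1b, Rec8, Rad21l and Stag3) and 5 mitotic or shared with meiosis (Smc1a, Smc3, Rad21, Stag1 and Stag2). RNA was sequenced from ovaries of C57BL/6J mice in 3 groups, with a library per ovary. The Control group (n = 4) was 8 weeks old. The Aged group (n = 3) and the Aged+CF group (n = 3) were 11 months old by the labels and 10 months old by the study's methods. The Aged+CF group was given 200 μL of CEFFE, a cell-free extract of fat tissue, at 3 μg/μL through the tail vein every 2 days for 2 weeks, and by the methods the other groups had received saline. All mice, Control included, had been primed with 10 IU of PMSG, a gonadotropin that drives follicle growth, 48 h before collection, so no group shows the unprimed ovary. Libraries were made from ovary tissue in bulk, in which fewer cells of a type and less RNA per cell cannot be told apart.

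Each cohesin ring is built from a pair of SMC proteins closed by a kleisin, with a STAG protein bound to the kleisin. Somatic cells use SMC1A, SMC3, RAD21 and either STAG1 or STAG2, while germ cells in meiosis replace SMC1A with SMC1B, RAD21 with REC8 or RAD21L, and STAG1 or STAG2 with STAG3. Oocytes load their meiotic cohesin before birth and must keep it through the long arrest that ends at ovulation, and its loss from chromosomes is known to accompany errors of segregation in old oocytes.

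The stretch upstream of the start is shown for Smc1b and Stag3, the subunits called between Aged and Control, and for Rec8, the other meiotic subunit that could be tested. These are the 250 bases before the RefSeq start on GRCm38.p6, in the direction of the gene, and such stretches were found for 7 of the 9 members. Capitals mark matches to GCGGGA, the core letters of an E2F-type site, or CACGTG, an E-box. TAATTG, the letters of a NOBOX-type site, was searched too, each on both strands. The Smc1b stretch lies at chr15:85131958-85132207 (minus strand), Stag3 at chr5:138280259-138280508 (plus strand) and Rec8 at chr14:55617916-55618165 (plus strand). By the annotated gene positions given below, the Stag3 stretch lies wholly inside its gene, as does that of Stag1. Part of the Rec8 stretch and the last bases of the Smc1b stretch lie inside theirs.
Smc1b: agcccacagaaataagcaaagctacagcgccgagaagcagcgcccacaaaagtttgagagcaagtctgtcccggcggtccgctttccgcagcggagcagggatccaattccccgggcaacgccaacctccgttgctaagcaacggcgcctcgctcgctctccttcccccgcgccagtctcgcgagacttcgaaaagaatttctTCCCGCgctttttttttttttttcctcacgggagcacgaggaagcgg
Stag3: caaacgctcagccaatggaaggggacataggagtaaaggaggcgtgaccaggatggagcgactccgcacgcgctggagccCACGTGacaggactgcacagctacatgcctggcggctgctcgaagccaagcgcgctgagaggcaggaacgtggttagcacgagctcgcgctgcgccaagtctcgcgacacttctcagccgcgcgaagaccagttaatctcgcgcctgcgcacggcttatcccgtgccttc
Rec8: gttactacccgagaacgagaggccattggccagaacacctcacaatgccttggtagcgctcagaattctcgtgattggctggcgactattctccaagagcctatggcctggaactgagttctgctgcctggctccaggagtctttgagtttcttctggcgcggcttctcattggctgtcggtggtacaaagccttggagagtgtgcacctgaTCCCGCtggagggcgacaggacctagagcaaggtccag
The Smc1b match is on the opposite strand and begins 47 bases before the start, and the Rec8 match, also on the opposite strand, begins 38 bases before it. The Stag3 match begins 170 bases before the start. Smc3 and Stag1 each held 1 match to GCGGGA as well, Smc1a and Rad21l held none, and TAATTG was in none of the 7. Over 32851 mouse promoters of the same length, 16.9% held GCGGGA, 6.02% CACGTG and 7.17% TAATTG, with no overlap between matches in the member promoters. The Smc1b stretch had 25 CpG dinucleotides and that of Stag3 26, against 10 in Rec8, 1 in Rad21l, 16 in Smc1a, 26 in Smc3, 31 in Stag1 and a median of 6 over all promoters. These matches are descriptions of letters and say nothing of binding.

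Between 15761789 and 21318254 reads were counted on genes per ovary, and levels are given as CPM, the counts relative to the library size scaled by edgeR's TMM method. Markers of oocytes, 24 genes such as Zp3 and Gdf9, summed to 650 to 880 CPM in the Control ovaries, 41.7 to 221 in Aged and 258 to 396 in Aged+CF. Aged replicate 34 stood apart, with the lowest oocyte sum, immune markers at 347 CPM against at most 117 in every other ovary, and oviduct markers (Ovgp1, Foxj1, Dnah5, Dnah9 and Sntn) at 314 CPM. Control replicate 33 also had oviduct markers at 412 CPM, while the other 8 ovaries lay between 4.44 and 35.4 CPM. All 5 oviduct markers had a count in both of these ovaries, and in 6 of the others Sntn was at 0. Values without Aged replicate 34 are given beside the fold changes and counts that it moves most.

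A gene was called when its fold change was at least 1.5 and its adjusted p, from edgeR's quasi-likelihood test on all 10 ovaries with Benjamini-Hochberg adjustment over the 18956 genes tested, was under 0.05. Fold changes between 2 groups are those of the first-named group over the second. Between Aged and Control, 2 of the 8 members tested were called, Smc1b and Stag3, both lower in the Aged group, where 6.06% of all tested genes were called lower and 11.1% called in either direction. The same 2 passed the fold at an unadjusted p under 0.05, where 9.44% of all tested genes were lower and 18.2% passed in either direction. Between Aged+CF and Aged 0 members were called (0.00528% of all tested genes), with 1, Smc1b, past the fold at an unadjusted p under 0.05 (7.96% of all tested genes), and the DESeq2 Wald test also called 0. Between Aged+CF and Control 0 members were called (0.179%), 1 at unadjusted p (7.69%), again Smc1b, and the DESeq2 Wald test called 1. The 4 Control ovaries, like the Aged ones, stand in more than one of these comparisons, which therefore share samples. Rad21l did not pass edgeR's filter on low counts. With only Aged and Aged+CF fitted, Smc1b did not pass it either, so its test between them was run with Control in the fit.

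Smc1b (ENSMUSG00000022432, GRCm38 chromosome 15, 85064689 to 85131964, minus strand) encodes the meiosis-specific SMC1 protein, which oocytes need to keep their chromosome pairs joined. It was counted 38, 32, 23 and 48 times in Control replicates 31, 32, 33 and 34, 5, 1 and 2 times in Aged replicates 31, 33 and 34, and 12, 8 and 17 times in Aged+CF replicates 30, 32 and 34. The 3 groups did not overlap, with Aged lowest and Control highest. In CPM the values were 2.22, 2.0, 1.17 and 2.54 in the Control group, 0.298, 0.0705 and 0.110 in the Aged group, and 0.688, 0.459 and 0.797 in Aged+CF.
The mean of Smc1b fell from 1.98 ± 0.588 CPM in Control (SD, n = 4) to 0.160 ± 0.122 in Aged (n = 3), a log2 fold change of -3.55 (standard error, SE, 0.50, edgeR adjusted p = 0.00497), or 11.7-fold. The largest shift on leaving out 1 ovary was to -4.29, without Aged replicate 31 (edgeR adjusted p = 0.00739), and the range was -4.29 to -3.22. Because only 8 reads were counted over the 3 Aged ovaries, the ratio of summed counts, Control over Aged, had a wide 95% counting interval, 12.1 with bounds of 5.95 and 28.5. The Aged+CF mean was 0.648 ± 0.172 CPM (n = 3), a log2 fold change of 1.96 over Aged (SE 0.54, edgeR adjusted p = 0.173). This fold change was 2.72 without Aged replicate 31 (edgeR adjusted p = 0.115). With only Aged and Aged+CF fitted, Smc1b did not pass the filter on low counts. The ratio of summed counts of Aged+CF over Aged was 4.04, with a counting interval of 1.85 to 10.0. These counting intervals leave out the spread between ovaries. Against Control, Aged+CF was lower by a log2 fold change of -1.59 (SE 0.41, edgeR adjusted p = 0.148). Leaving out Aged replicate 34 and Control replicate 33 gave -3.47 for Aged vs Control (edgeR adjusted p = 0.00645) and 1.72 for Aged+CF vs Aged (adjusted p = 0.129).

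Stag3 (ENSMUSG00000036928, chromosome 5, 138280240 to 138312393, plus strand) encodes the STAG protein of meiotic cohesin, whose absence leaves ovaries without oocytes. Its CPM was 1.69, 1.87, 1.93 and 1.59 in the Control group, 0.596, 0.212 and 1.10 in the Aged group, and 1.38, 1.26 and 0.937 in Aged+CF, from 3 to 38 counts per ovary. All Aged and Aged+CF ovaries lay under the lowest Control ovary. Aged and Aged+CF overlapped through Aged replicate 34, the highest of its group.
Stag3 fell from 1.77 ± 0.156 CPM in Control (n = 4) to 0.637 ± 0.447 in Aged (n = 3), a log2 fold change of -1.44 (SE 0.43, edgeR adjusted p = 0.0481), or 2.70-fold. This adjusted p lay just under the threshold, and the call was lost without the filter on low counts, with the compared groups alone, and on leaving out any 1 ovary other than Aged replicate 34, while the log2 fold change stayed between -2.04 and -1.02 over the ovaries left out. Without Aged replicate 34 and Control replicate 33 it was -1.99 (edgeR adjusted p = 0.0199). The Aged+CF mean was 1.19 ± 0.228 CPM (n = 3), a log2 fold change of 0.86 over Aged (SE 0.45, edgeR adjusted p = 0.367) and of -0.57 against Control (SE 0.40, adjusted p = 0.54). The value over Aged rested on single ovaries, at 1.49 without Aged replicate 34 (edgeR adjusted p = 0.0826) and 0.48 without Aged replicate 33 (adjusted p = 0.555).

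Rec8 (ENSMUSG00000002324, chromosome 14, 55618037 to 55625395, plus strand) encodes the kleisin that is cut when homologous chromosomes and then sister chromatids part in meiosis. Per gene length it was the most abundant of the meiotic subunits in each group. It was at 7.06, 11.2, 14.2 and 9.12 CPM in the Control group, 3.76, 3.17 and 20.5 in the Aged group, and 7.40, 7.41 and 6.89 in Aged+CF. Aged held both the lowest values and, in replicate 34, the highest of all 10 ovaries, so it overlapped with both other groups. Aged replicate 34 and Control replicate 33, the ovaries highest in Rec8, were also the ovaries with oviduct markers at 314 and 412 CPM, and the part of these markers in the result was not tested.
With all ovaries, the log2 fold change of Rec8 was -0.18 between Aged and Control (SE 0.56, edgeR adjusted p = 0.864) and -0.34 between Aged+CF and Aged (SE 0.60, adjusted p = 0.809). Without Aged replicate 34 it was -1.54 between Aged and Control (edgeR adjusted p = 0.00628) and 1.04 between Aged+CF and Aged (adjusted p = 0.075), so Rec8 joined the called members between Aged and Control, 3 in all. Without Control replicate 33 as well, the values were -1.35 (edgeR adjusted p = 0.00888) and 1.04 (adjusted p = 0.0622). The log2 fold change between Aged+CF and Control was -0.52 (SE 0.57, edgeR adjusted p = 0.715).

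Rad21l (ENSMUSG00000074704, chromosome 2, 151645404 to 151668533, minus strand) encodes the other meiotic kleisin, which acts mainly early in meiotic prophase. It was counted 4, 0, 0 and 2 times in the Control group, 0 times in each Aged ovary, and 2, 0 and 2 times in Aged+CF. At this depth 0 counts allow up to 3, so the Aged group was at the floor, no ovary had over 4 counts, and no fold or test is given.

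**Figure D1:**
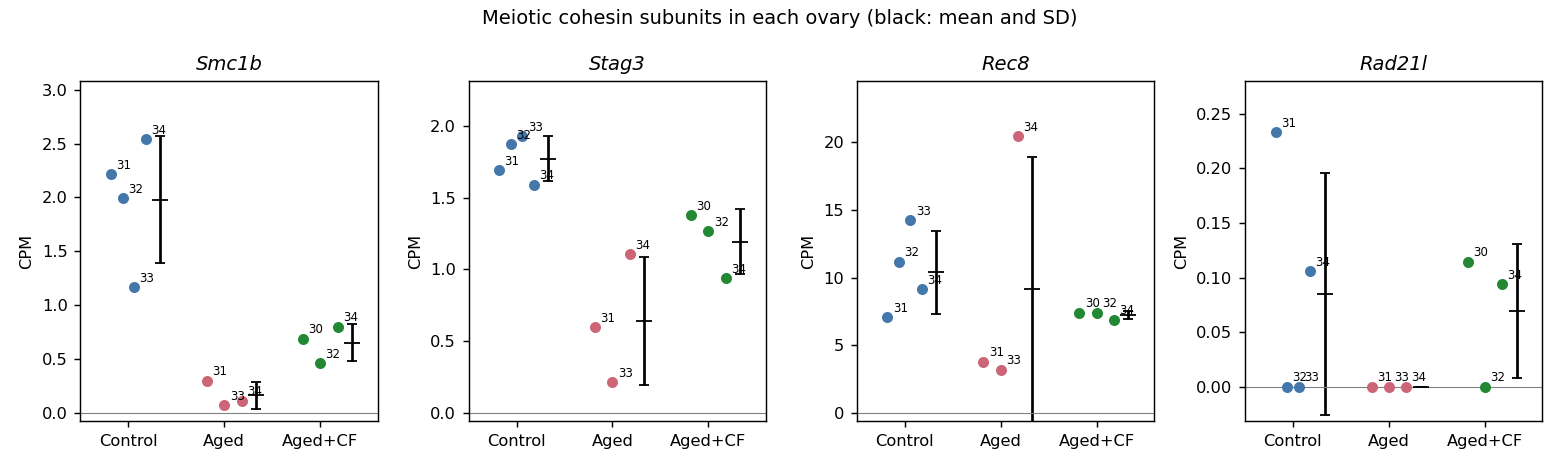
CPM (y axis) of Smc1b, Stag3, Rec8 and Rad21l in each ovary of the Control, Aged and Aged+CF groups (x axis), with a point per ovary marked by its replicate number and the mean and SD in black. Smc1b separates the 3 groups, Stag3 separates Control from the others, and Rec8 is spread from 3.17 to 20.5 CPM within the Aged group.

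The mitotic or shared subunits differed at most 1.19-fold between groups, and none was called. SMC3 is the SMC partner in every cohesin ring, and Smc3 (ENSMUSG00000024974, chromosome 19, 53600398 to 53645833, plus strand) was at 97.5, 104, 99.7 and 102 CPM in the Control group, 85.7, 84.4 and 88.8 in the Aged group, and 92.2, 92.8 and 99.2 in Aged+CF. Aged lay under both other groups without overlap. Its log2 fold change was -0.22 between Aged and Control (SE 0.07, edgeR adjusted p = 0.0571), a 1.17-fold difference, and 0.13 between Aged+CF and Aged (SE 0.07, adjusted p = 0.392).
Smc1a (ENSMUSG00000041133, chromosome X, 152016428 to 152062694, plus strand), the somatic counterpart of Smc1b, was at 135, 145, 134 and 143 CPM in the Control group, 129, 115 and 121 in the Aged group and 129, 119 and 139 in the Aged+CF group. Every Aged ovary was under every Control ovary, with a log2 fold change of -0.19 (SE 0.08, edgeR adjusted p = 0.146), and Aged+CF overlapped with both groups.
Rad21 (ENSMUSG00000022314, chromosome 15, 51962240 to 51991747, minus strand), the mitotic kleisin, was at 204, 218, 193 and 221 CPM in the Control group, 193, 177 and 155 in the Aged group and 212, 192 and 209 in the Aged+CF group. Aged overlapped with both other groups through replicate 31, and the log2 fold change was -0.25 between Aged and Control (SE 0.10, edgeR adjusted p = 0.105) and 0.22 between Aged+CF and Aged (SE 0.10, adjusted p = 0.322).
Of the 2 somatic STAG genes, Stag1 (ENSMUSG00000037286, chromosome 9, 100597798 to 100959375, plus strand) had means of 64.0 ± 6.43 CPM in the Control group, 60.6 ± 5.36 in the Aged group and 65.2 ± 3.10 in the Aged+CF group, and all groups overlapped. Stag2 (ENSMUSG00000025862, chromosome X, 42149317 to 42277185, plus strand) was at 167, 155, 158 and 161 CPM in the Control group, 174, 162 and 174 in the Aged group and 194, 186 and 191 in the Aged+CF group. Aged+CF was the highest group and overlapped with neither other group. Its log2 fold change was 0.25 against Control (SE 0.07, edgeR adjusted p = 0.18), a 1.19-fold difference and so under the fold threshold, and 0.16 against Aged (SE 0.08, adjusted p = 0.325).

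**Figure D2:**
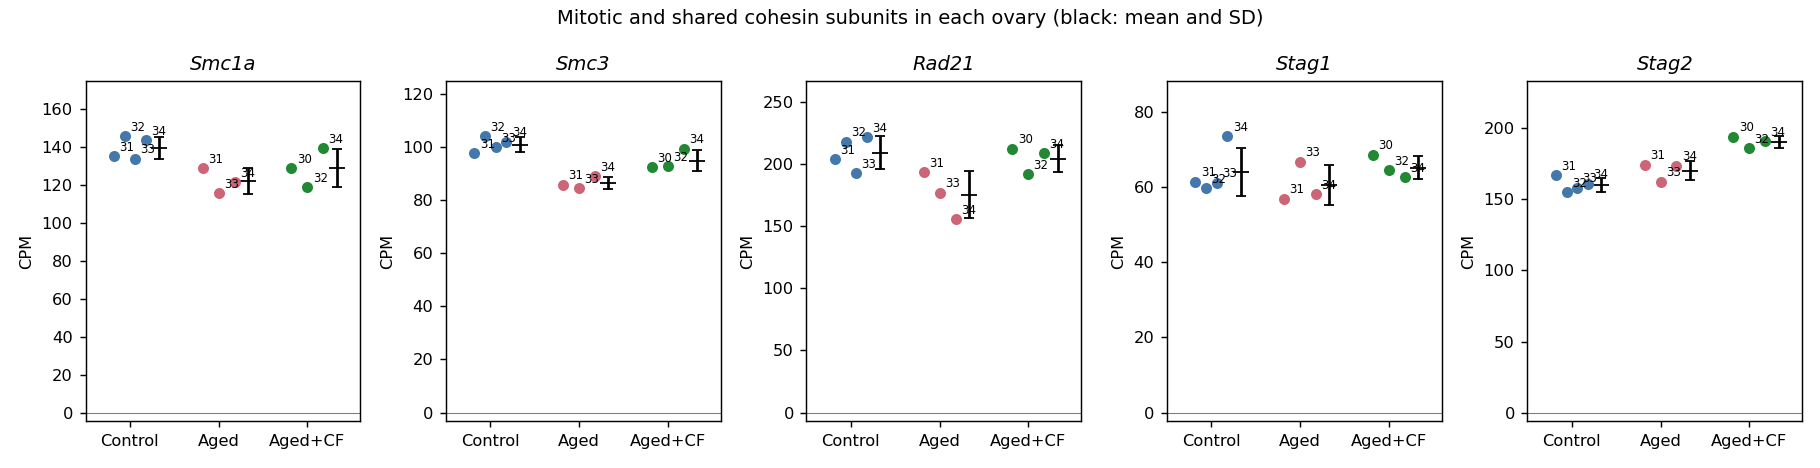
CPM (y axis, from 0) of Smc1a, Smc3, Rad21, Stag1 and Stag2 in each ovary by group (x axis), with replicate numbers at the points and the mean and SD in black. The groups lie close together for all 5 genes, with Aged under Control for Smc1a and Smc3 and Aged+CF highest for Stag2.

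Counted without regard to size, 4 members (Smc1a, Smc3, Smc1b and Stag3) were lower in every Aged ovary than in every Control ovary, where 15.6% of all tested genes were. Between Aged+CF and Aged, Smc3, Stag2 and Smc1b were higher without overlap (10.2% of all tested genes). Between Aged+CF and Control, Stag2 was higher (9.69%) and Smc1b and Stag3 were lower (12.2%) without overlap. The median log2 fold change of the 3 meiotic members tested was -1.44 between Aged and Control, 0.86 between Aged+CF and Aged and -0.57 between Aged+CF and Control. Without Aged replicate 34 it was -2.04, 1.49 and -0.55, and without Aged replicate 33 it was -1.02, 0.48 and -0.54. With the replicate number as a block it was -1.47, 0.52 and -1.07. With only the compared groups it was 0.25 between Aged+CF and Aged, where Smc1b did not pass the filter on low counts. With all ovaries and no block, the medians of the 5 mitotic or shared members were -0.19, 0.13 and -0.03, and over all genes tested they were -0.00, -0.02 and -0.03.

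**Figure D3:**
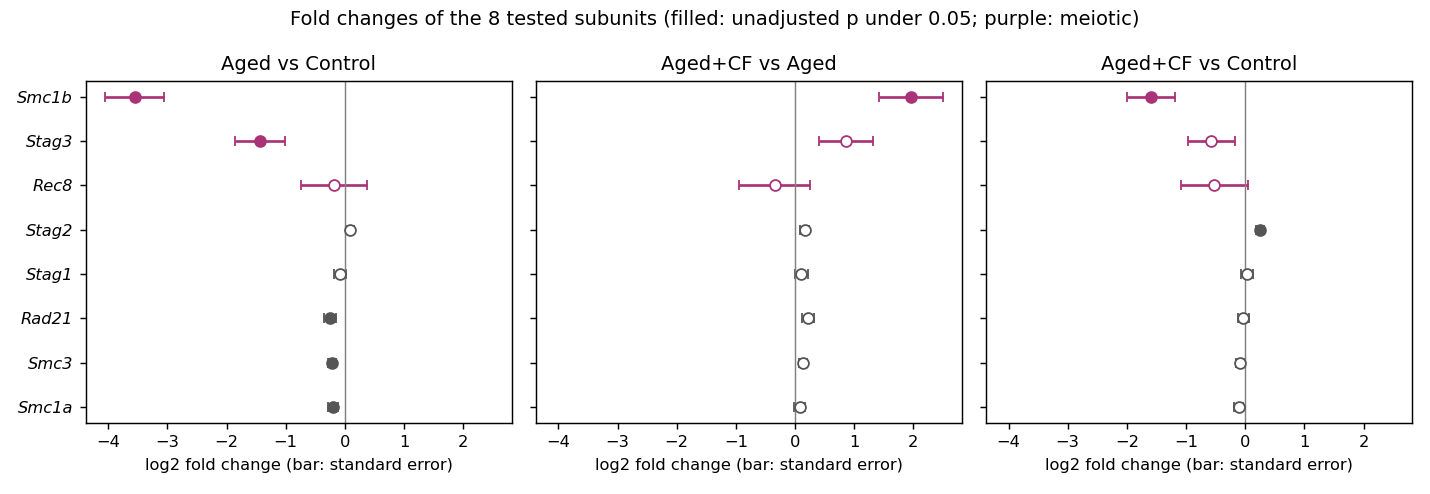
Log2 fold change (x axis) of the 8 tested subunits (y axis) in the 3 comparisons, with its standard error (SE) as bars, filled points for an unadjusted edgeR p under 0.05 and purple for meiotic subunits. Smc1b has the largest change of the 8 in each panel, -3.55, 1.96 and -1.59, and the mitotic or shared subunits lie between -0.25 and 0.25.

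Levels were compared between genes as FPKM, which divides by gene length. In Control the order was Rad21 (51.0 ± 2.78 FPKM), Smc1a (20.5 ± 0.655), Smc3 (17.3 ± 0.34), Stag2 (14.7 ± 0.558), Stag1 (3.17 ± 0.321), Rec8 (2.73 ± 0.82), Smc1b (0.495 ± 0.145), Stag3 (0.228 ± 0.0206) and Rad21l (0.0498 ± 0.0652). Stag1 and Rec8, neighbours in this order, did not differ beyond their spread. In the Aged group Stag3 (0.0774 ± 0.0574 FPKM) stood above Smc1b (0.0372 ± 0.029), within their spread. The gene lengths in the table exceed the exons annotated in GENCODE M21 for most members. With the annotated exons Stag2 (20.03 ± 0.759 FPKM) passed Smc3 (18.8 ± 0.369) in Control, where Stag1 (5.61 ± 0.568) then stood above Rec8 (3.66 ± 1.10) beyond their spread. In Aged+CF, Stag2 (23.2 ± 0.797) then passed Smc1a (22.5 ± 1.83) and Stag3 (0.210 ± 0.042) passed Smc1b (0.162 ± 0.043), within their spread. The order of these genes thus depends on the length used.
The share of each meiotic subunit among its counterparts was taken per length in each ovary. Smc1b made up 2.71%, 2.28%, 1.46% and 2.93% of Smc1b and Smc1a in the Control group, 0.392%, 0.104% and 0.154% in the Aged group, and 0.900%, 0.653% and 0.963% in Aged+CF. The groups did not overlap. The log2 ratio of Smc1b to Smc1a differed by -3.33 between Aged and Control and by -1.43 between Aged+CF and Control (two-sided exact permutation p = 0.0571 for each, adjusted p = 0.171 over 12 ratio tests), and by 1.89 between Aged+CF and Aged (exact permutation p = 0.1, adjusted p = 0.24). These are the smallest values that the test, which doubles the smaller tail, allows for 4 ovaries against 3 and 3 against 3, so neither design can reach the threshold.
Stag3 made up 1.10% to 1.39% of the 3 STAG genes in the Control group, 0.149% to 0.749% in Aged and 0.581% to 0.828% in Aged+CF. Its log2 ratio to Stag1 and Stag2 differed by -1.74 between Aged and Control (exact permutation p = 0.0571) and by 0.95 between Aged+CF and Aged, where the groups overlapped (exact permutation p = 0.2). Rec8 made up 3.59% to 7.36% of Rec8 and Rad21 in the Control group, 2.05%, 1.89% and 12.4% in the Aged group, and 3.42% to 3.98% in Aged+CF, and its log2 ratio differed by -0.42 between Aged and Control (exact permutation p = 0.686), or by -1.36 without Aged replicate 34.

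**Figure D4:**
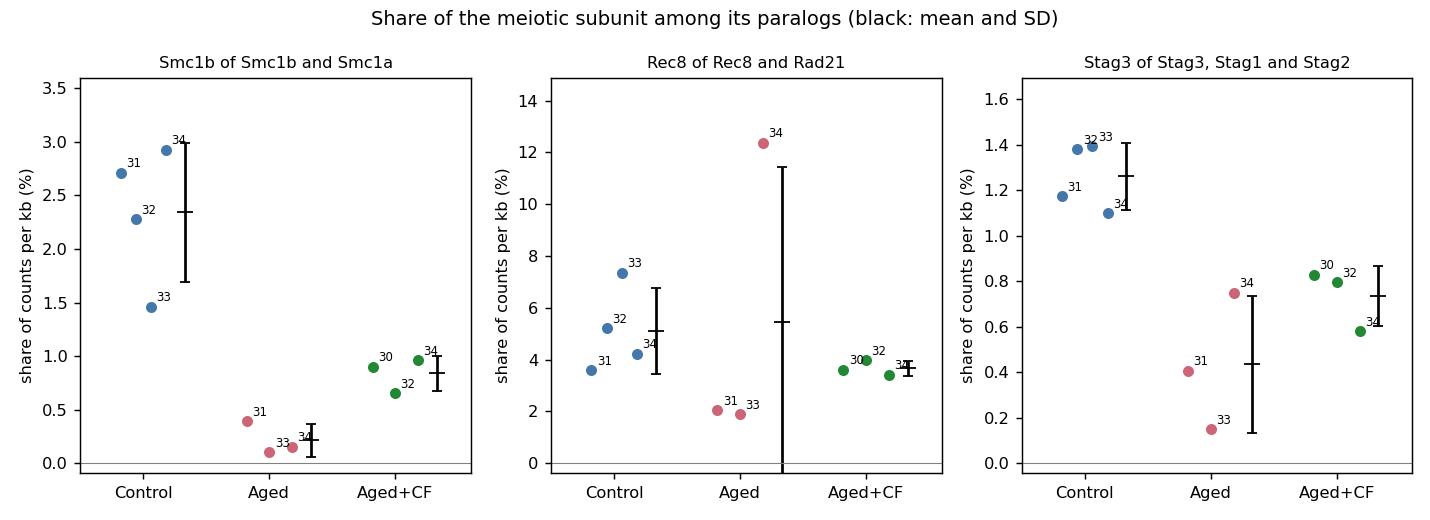
Share of counts per kb in percent (y axis) taken by Smc1b, Rec8 and Stag3 among the named counterparts, in each ovary by group (x axis), with the mean and SD in black. The share of Smc1b is 1.46% to 2.93% in Control and at most 0.392% in the Aged group, and Rec8 reaches 12.4% in Aged replicate 34.

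The meiotic subunits were set beside the oocyte markers in each ovary. All 24 oocyte markers passed the filter, and 16 were called lower between Aged and Control (6.06% of all tested genes), with 0 called by edgeR between Aged+CF and Aged, where 7 were higher at unadjusted p (3.91%). Without Aged replicate 34 these counts were 19, 1 and 10. Between Aged and Control 8 were called lower without Control replicate 34, 9 without Control replicate 32 and 0 with the replicate number as a block. At unadjusted p, 2 to 11 were higher between Aged+CF and Aged over the ovaries left out. That count was 2 without Aged+CF replicate 34 and 3 without Aged+CF replicate 30. It was 1 with the block and 1 of 22 tested with only the compared groups. Between Aged+CF and Control 0 were called and 14 were lower at unadjusted p (4.36%). In that comparison 17 were called lower with only the compared groups, 14 without Aged replicate 34 and 3 by the DESeq2 Wald test. The share of all tested genes called in those fits is not given here. At unadjusted p, 3 were lower there without Aged+CF replicate 30 and 1 with the replicate number as a block. Smc1b was 3.41, 2.27, 1.74 and 2.93 CPM per 1000 CPM of oocyte markers in the Control group, 1.35, 0.325 and 2.65 in the Aged group, and 2.23, 1.78 and 2.01 in Aged+CF. The value of 2.65 is that of Aged replicate 34 and comes from 2 Smc1b counts over 41.7 CPM of oocyte markers. Through it the Aged group overlapped with both others, while the other Aged ovaries lay under all Control and Aged+CF ovaries, and Control and Aged+CF overlapped. Stag3 was 1.83 to 2.88 in the Control group, 2.70, 0.975 and 26.5 in the Aged group, and 2.37 to 4.89 in Aged+CF, and Rec8 was 10.5 to 21.3, 17.0, 14.6 and 491, and 17.4 to 28.7. The highest Aged value of each of the 3 genes was that of replicate 34.

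**Figure D5:**
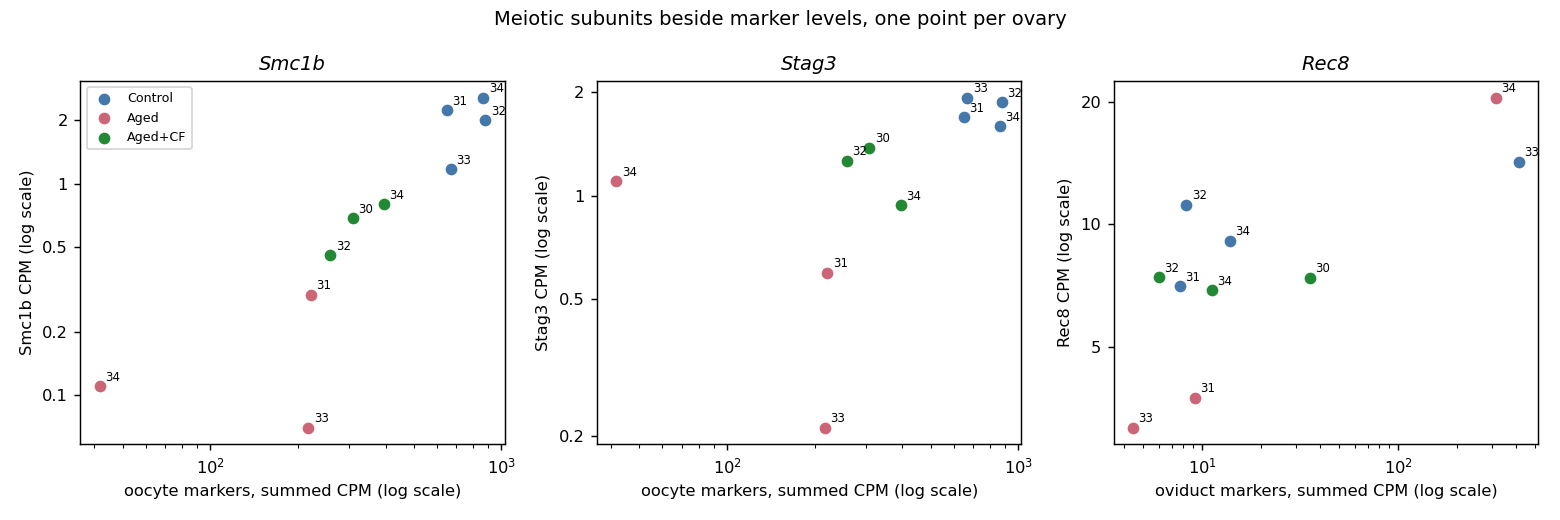
Smc1b and Stag3 CPM against the summed CPM of 24 oocyte markers, and Rec8 CPM against that of 5 oviduct markers, with a point per ovary, both axes on a log scale and colours for the groups. Smc1b is low where oocyte markers are low, Stag3 in Aged replicate 34 (1.10 CPM) lies beside the Aged+CF ovaries at far fewer oocyte markers, and the ovaries highest in Rec8 are those highest in oviduct markers.

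Genes whose profile over the 10 ovaries was most like that of each meiotic subunit were found by the root mean square difference of log2 CPM, each gene centred on its own mean, over 16743 genes. For Smc1b they were Arhgap20os (0.38), Nos1 (0.42) and Alpk3 (0.44), where the median gene differed by 1.32. Alpk3, an atypical protein kinase, had 27.3 ± 5.34 CPM in the Control group, 4.49 ± 2.17 in the Aged group and 12.02 ± 2.78 in the Aged+CF group. For Stag3 they were Tmem108 (0.19), Gm15983 (0.26) and Celsr2 (0.26), with a median of 0.82 over genes. For Rec8 they were Creg2 (0.23), Prom1 (0.27) and Trpc4 (0.29), with a median of 0.80. Prom1, which encodes a membrane protein of cell protrusions, had 2.93 ± 1.27 CPM in the Control group, 1.83 ± 1.96 in the Aged group and 1.36 ± 0.215 in the Aged+CF group.

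The proteins that load, fix, protect and release cohesin were followed as a list of 23 genes, of which 21 were tested, all but Sgo2b and Meikin. Between Aged and Control 11 were called lower (6.06% of all tested genes) and 0 higher (5%), with a median log2 fold change of -1.27. Over the ovaries left out in turn, 8 to 12 were called lower. Among the 11 were Cdca5, which encodes sororin (16.9 ± 3.26 CPM in the Control group, 4.13 ± 2.79 in Aged), and Esco2, which encodes an SMC3 acetyltransferase (14.9 ± 2.25 and 4.07 ± 2.27). Their log2 fold changes were -2.04 (SE 0.50, edgeR adjusted p = 0.024) and -1.88 (SE 0.41, adjusted p = 0.0166). Esco1, which encodes the other SMC3 acetyltransferase, was not called (log2 fold change 0.16, edgeR adjusted p = 0.456).
The shugoshin genes, whose products shield centromeric cohesin from cleavage, fell as well, Sgo2a with a log2 fold change of -1.69 (SE 0.31, edgeR adjusted p = 0.00981) and Sgo1 of -1.42 (SE 0.40, adjusted p = 0.0407). So did Espl1, which encodes separase, the protease that cuts the kleisin (log2 fold change -2.0, SE 0.42, edgeR adjusted p = 0.0156), and the mitotic kinase genes Plk1 (-1.81, adjusted p = 0.0117) and Haspin (-1.27, adjusted p = 0.00916). The other 4 called encode proteins known from the replication fork, with log2 fold changes of -1.44 for Wdhd1, -1.40 for Chtf18, -1.38 for Dscc1 and -0.92 for Ddx11. The loader genes were not called, with log2 fold changes of -0.09 for Nipbl and -0.06 for Mau2, nor was Wapl, which encodes the release factor (-0.35, edgeR adjusted p = 0.0673).
With Aged+CF set against Aged, 0 of the 21 were called and 8 were higher at unadjusted p, where 3.91% of all tested genes were. That count was 3 with only the compared groups and 3 to 11 over the ovaries left out, 3 without Aged+CF replicate 34, 5 without Aged+CF replicate 30 and 11 without Aged replicate 33. The smallest p values were those of Wdhd1 (log2 fold change 0.76, edgeR adjusted p = 0.161), Chtf18 (0.86, adjusted p = 0.161) and Sgo2a (1.06, adjusted p = 0.187). The DESeq2 Wald test called 3 of the list higher. Against Control, 0 genes were called and 3 were lower in Aged+CF at unadjusted p (4.36% of all tested genes), with the smallest p for Wdhd1 (log2 fold change -0.68, edgeR adjusted p = 0.129), Haspin (-0.87, adjusted p = 0.138) and Wapl (-0.37, adjusted p = 0.208). Without Aged replicate 34 the counts were 12 called lower between Aged and Control and 6 higher at unadjusted p between Aged+CF and Aged, and without Control replicate 33 as well they were 11 and 5. Between Aged+CF and Control 1 was called lower without Aged replicate 34, and 9 were lower at unadjusted p. With only these compared groups 2 were called lower and 9 were lower at unadjusted p, and the DESeq2 Wald test called 2 lower.

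The related SMC complexes, condensin, which compacts chromosomes, and SMC5/6, which acts in DNA repair, were followed as 15 genes, of which 14 were tested, all but Eid3. Between Aged and Control 6 were called lower (6.06% of all tested genes) and 0 higher, and all 6 encode condensin subunits. Leaving out Control replicate 32 or Control replicate 34 left 3 of the list called lower, and leaving out Aged replicate 31 left 4. Smc2 and Smc4 encode the SMC pair of both condensins. Smc2 fell from 46.7 ± 3.88 CPM in Control to 22.7 ± 5.25 in Aged (log2 fold change -1.04, SE 0.17, edgeR adjusted p = 0.00677), and Ncapd2 from 103 ± 10.01 to 42.1 ± 9.96 (log2 fold change -1.29, SE 0.18, adjusted p = 0.00497). Ncapg (-1.62), Ncaph (-1.54), Ncapg2 (-1.10) and Smc4 (-0.65) were the others. The condensin gene Ncapd3 (-0.51, edgeR adjusted p = 0.025) and Smc5 of the SMC5/6 complex (-0.48, adjusted p = 0.0233) fell short of the fold threshold alone. Of the 14 tested, 13 had a log2 fold change below 0. Between Aged+CF and Aged 0 were called and 4 were higher at unadjusted p (3.91% of all tested genes), with the smallest p for Ncapd2 (log2 fold change 0.73, edgeR adjusted p = 0.161), Smc2 (0.66, adjusted p = 0.169) and Ncapg2 (0.88, adjusted p = 0.171), and between Aged+CF and Control 0 passed either rule, with the smallest p for Ncapd2 (-0.56, adjusted p = 0.193), Smc2 (-0.38, adjusted p = 0.33) and Ncaph (-0.82, adjusted p = 0.358). The DESeq2 Wald test called 3 of the list higher between Aged+CF and Aged, and without Aged replicate 34 the counts were 5 called lower between Aged and Control and 1 higher at unadjusted p between Aged+CF and Aged, and without Control replicate 33 as well they were 4 and 1.
Markers of dividing cells were lower in the Aged ovaries as well. Of 15 such genes, among them Mki67 and Top2a, 10 were called lower between Aged and Control (6.06% of all tested genes), and their sum was 783 to 1093 CPM in the Control group, 179 to 459 in the Aged group and 465 to 631 in the Aged+CF group, with 0 called by edgeR between Aged+CF and Aged and 4 higher at unadjusted p (3.91%). Without Aged replicate 34, 13 were called lower between Aged and Control. Over the ovaries left out 5 to 13 were, with 5 without Control replicate 32 or Control replicate 34, and 0 with the replicate number as a block. Between Aged+CF and Aged, 2 to 9 were higher at unadjusted p over the ovaries left out. That count was 2 with only the compared groups and 2 with the block, and the DESeq2 Wald test called 2 higher. Of the other marker lists between Aged and Control, 0 of 9 granulosa markers were called and 4 were lower at unadjusted p (9.44% of all tested genes). Called higher were 6 of 6 luteal, 3 of 4 endothelial and 4 of 6 immune markers (5% of all tested genes). Among 5 theca and stroma and 4 tested oviduct markers 0 were called, and 0 passed at unadjusted p. Without Aged replicate 34, 1 granulosa and 1 theca and stroma marker were called lower, 6 luteal, 3 endothelial and 3 immune markers were called higher, and 0 oviduct markers were called, with 2 lower at unadjusted p. Without Control replicate 32, 1 luteal, 0 endothelial and 2 immune markers were called higher. These counts were 3, 0 and 2 without Control replicate 34, and 3, 0 and 5 without Aged replicate 33. At unadjusted p, 6 luteal, 1 to 3 endothelial and 4 to 6 immune markers were higher over the ovaries left out in turn. With all ovaries 6, 3 and 5 were, where 8.79% of all tested genes were higher at unadjusted p. The part of cell composition in the levels of the cohesin genes was not tested.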

How the data were processed

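RNA of 10 ovaries was grouped by the labels, and replicate numbers are those in the titles. The values that the authors deposited are raw counts of reads on each gene, and FPKM values made from them. The processing notes name TopHat, Cufflinks 2.1.1 and GRCm38.p4, and the counting tool, strand setting and annotation are not given in the sources used here. No annotated gene overlaps Smc3, Rad21, Rec8, Rad21l or Stag3, and Smc1b holds a pseudogene on the opposite strand, outside its exons. Positions come from GENCODE M21 on GRCm38, in which 55141 identifiers were found. Of the 55487 genes, 18869 had no count.

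Counts were tested with edgeR 4.0 in R 4.3 (filterByExpr, TMM, quasi-likelihood F test, 1 mean per group). No pair of libraries of the same group agreed within sampling noise, and pairs across groups were not checked for this. Standard errors were the log2 fold change divided by the root of F. The paper's text gives both an adjusted and an unadjusted p threshold, and both were computed. Ratios added 0.5 counts and divided by the length in the table. Profiles used log2 CPM with a prior count of 2 and genes of at least 1 CPM. Intervals cover counting error only. The labels do not say that each ovary is of another animal, while the paper's methods call the sequenced samples biological replicates. The p values measure the spread between these samples. The members and lists were chosen with earlier results of these data known. By rule, every called member of the regulator and SMC lists was named, with the 3 smallest p per comparison and the 3 most alike genes per meiotic subunit. The fit was tested on simulated data. Alternatives were no filter, DESeq2 size factors, the DESeq2 1.42 Wald test, only the compared groups, the replicate number as a block and leaving out each ovary; leaving out Control replicate 33 and Aged replicate 34 together, the list counts and medians under each alternative and the annotated lengths were chosen after seeing the data.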

Additional observations from a re-analysis of the deposited data

Results flagged for a closer look

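In the Control group, Stag1 in replicate 34 was 73.5 CPM, and its gap to the nearest of the other 3 ovaries took 0.879 of the group's whole range, past Dixon's 95% critical value for 4 samples. Chance flags about 1 in 20 groups. Stag1 passed no test in any comparison with or without this ovary.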

How the results depend on the processing

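Of the members called in Aged vs Control, 2 in all, 1 (Smc1b) was left without the filter on low counts and with only the compared groups, 0 with the replicate block, and 1 to 3 over the ovaries left out in turn. Stag3 made the difference in most of these, with edgeR adjusted p from 0.0727 to 0.168 where it was lost. In Aged+CF vs Aged at unadjusted p, 0 members passed with only the compared groups, where Smc1b did not pass the filter on low counts. Over the ovaries left out 1 to 3 passed, 3 of them (Smc1b, Rec8 and Stag3) without Aged replicate 34, and 3 without Control replicate 33 as well. In Aged+CF vs Control the DESeq2 Wald test called 1, Smc1b, at an adjusted p of 0.0286. Rec8 changed sign over the ovaries left out, from -1.54 to 0.24 in Aged vs Control and from -0.73 to 1.04 in Aged+CF vs Aged, and was 1.04 there with both ovaries of high oviduct markers left out. Of the members near 0, Rad21 in Aged+CF vs Control ranged from -0.069 to 0.011 and Stag1 from -0.0041 to 0.10. The cause was not tested. Same-numbered Control and old ovaries come from mice of different ages, so the numbers do not pair animals across age. Deviations of same-numbered ovaries from their group means correlated at -0.185 to 0.153 over all 6 such pairs. With the replicate number as a block, Smc1b was -3.68 in Aged vs Control (edgeR adjusted p = 0.0566), Stag1 was -0.017 in Aged+CF vs Control, and 0 cohesin regulators and 0 genes of the other SMC complexes were called in Aged vs Control, with 12 and 6 lower at unadjusted p, and 0 regulators were higher at unadjusted p in Aged+CF vs Aged. With that block, 0 of 24 oocyte markers and 0 of 15 markers of dividing cells were called lower in Aged vs Control, with 20 and 13 lower at unadjusted p. Called higher there were 2 luteal, 0 endothelial and 0 immune markers. Depth limits Smc1b, Stag3 and Rad21l most, with at most 48 counts per ovary.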
